A study of Homo sapiens with 12 samples.

Results

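The interferon-stimulated genes described here are a list of 58 genes, taken by symbol out of 60603 genes in the count table. All 58 were found under exactly 1 identifier, and all 58 passed the filter on low counts that left 17775 genes for testing. They were measured by poly(A) RNA-seq in T24 cells, an established human line that came from a bladder carcinoma. The 12 libraries form 4 groups of 3: WT cells without treatment, WT cells with 5-Ad-IAA, NS1 cells without treatment and NS1 cells with 5-Ad-IAA. The series concerns AlissAID, which degrades untagged endogenous proteins through a degron-bearing binder and an auxin-dependent ubiquitin ligase. 5-Ad-IAA is the auxin derivative used as its inducer. The labels give NS1 as a genotype without spelling it out, and they do not say whether the NS1 cells are 1 clone or whether replicates are separate cultures. P-values therefore measure the spread between these libraries, which may be technical. The dose and length of treatment were not used.

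Interferons are secreted proteins that warn cells of infection. Type I and type III interferons act through receptors and JAK kinases on a complex that contains STAT2 and IRF9, which binds the interferon-stimulated response element in promoters. Interferon gamma acts through a STAT dimer on the gamma-activated site and, through newly made IRF1, on a second wave of genes such as the guanylate-binding proteins and immunoproteasome subunits. Many of the induced proteins sense viral RNA, block viral replication or amplify the response, and many carcinoma cells express part of the set without any added interferon.

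The promoters of 4 members are shown because these genes had the largest log2 fold changes with the inducer in NS1 cells among called members with a promoter in the RefSeq table used (GRCh38.p14, MX1, IFI44L, RSAD2 and SAMD9L). Each line gives the 200 bases before an annotated start, 5′ to 3′ on the gene's own strand. Capitals mark the core of the interferon-stimulated response element, searched on both strands as GAAA, any 2 bases, GAAA.
MX1, chr21:41431850-41432049, plus strand: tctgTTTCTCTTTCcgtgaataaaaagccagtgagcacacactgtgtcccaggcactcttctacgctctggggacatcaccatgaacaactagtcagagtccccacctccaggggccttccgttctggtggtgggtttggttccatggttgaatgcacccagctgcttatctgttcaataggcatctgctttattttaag
IFI44L, chr1:78620248-78620447, plus strand: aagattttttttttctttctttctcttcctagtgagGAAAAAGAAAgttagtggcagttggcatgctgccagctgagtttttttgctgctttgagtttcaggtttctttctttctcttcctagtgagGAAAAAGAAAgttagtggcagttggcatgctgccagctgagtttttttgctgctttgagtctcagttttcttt
RSAD2, chr2:6877577-6877776, plus strand: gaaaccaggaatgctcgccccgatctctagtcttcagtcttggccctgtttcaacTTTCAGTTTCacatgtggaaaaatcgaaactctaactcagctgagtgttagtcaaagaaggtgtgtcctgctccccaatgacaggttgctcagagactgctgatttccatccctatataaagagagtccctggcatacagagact
SAMD9L, chr7:93148386-93148585, minus strand: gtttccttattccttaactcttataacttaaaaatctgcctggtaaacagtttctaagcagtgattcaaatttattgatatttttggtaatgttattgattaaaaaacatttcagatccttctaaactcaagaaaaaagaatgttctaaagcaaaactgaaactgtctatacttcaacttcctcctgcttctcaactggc
The stretch of IFI44L holds 2 matches, which begin 164 and 73 bases before the start. MX1 has 3 annotated starts in the table and RSAD2 has 2, and the stretch with the most matches is shown. For RSAD2 it has 1 match at 145 bases before the start, while the window of the other start has none. For MX1 it has 1 match at 196 bases before the start. The window of another MX1 start has 1 match, which begins 11 bases after that start, and the window of the remaining start has none. The stretch of SAMD9L holds none, which says only that these letters are not in this window.

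In the 45 members with at least 1 RefSeq window of 250 bases before to 50 bases after the start, 32 held the response element core (71.1%), against 4.38% of all 27305 genes in the table. The 45 members have 59 windows, of which 62.7% held it, against 3.57% of all 35116 windows of the same length. The gamma-activated site, searched as TTC, any 3 bases, GAA, was present in 14 of the 45 members (31.1%), against 9.38% of all genes. By windows these shares were 27.1% and 7.66%. The response element core was found in 24 of 30 type I typical members, 5 of 10 members induced by both interferon types and 3 of 5 members typical of interferon gamma, and the gamma-activated site in 8 of 30, 3 of 10 and 3 of 5. Among members called higher with the inducer in NS1 cells, 13 of 19 held the response element core, and 19 of 26 members that were not called held it.

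Library totals ran from 10593934 to 20266996 counts, and each member had at least 6 counts in every library. Levels are given as CPM, the read count per 1000000 counts of a library after TMM scaling, always in the order of replicates 1, 2 and 3. Keratins 7, 8, 18 and 19, which mark epithelial cells, were high in all libraries (175 to 6020 CPM), while EPCAM was low (0.617 to 4.50 CPM). These markers also differed between the lines. KRT19 was higher in untreated NS1 than WT cells (log2 fold change 0.78, SE 0.21, adjusted p = 0.0312) and EPCAM lower (log2 fold change -1.76, SE 0.41, adjusted p = 0.0155), and with the inducer in both lines KRT7 and KRT19 were higher in NS1 cells (log2 fold changes of 1.16 and 1.31, adjusted p = 0.0243 and 7.51e-04). Within NS1 cells 0 of the 5 epithelial markers were called with the inducer without a block, and KRT7, KRT8 and KRT19 were higher with the replicate number as a block within each line (adjusted p = 9.34e-04, 0.00103 and 8.86e-04). The part of these shifts in the members' differences was not tested. Among leukocyte markers, PTPRC, CD3E and MS4A1 had between 0 and 1 count in each library, and CD14 stood between 0.432 and 2.71 CPM. In bulk libraries a lower share of cells that express a gene and less RNA per cell cannot be told apart.

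The set was low in untreated NS1 cells and higher in NS1 cells with the inducer. Without treatment, 38 of the 58 members were lower in NS1 than in WT cells at a Benjamini-Hochberg adjusted p under 0.05 in edgeR's quasi-likelihood test, and 0 were higher. Over all tested genes 7.05% were called lower and 5.45% higher. The median log2 fold change of the members was -0.76, against 8.83e-05 for all genes, and 55 of 58 were below 0. With 5-Ad-IAA, 25 of the 58 members were called higher in NS1 cells and 0 lower, against 2.76% and 3.39% of all genes. All 58 fold changes were above 0, with a median of 0.63 on the log2 scale against 0.00555 for all genes. In the same test, 0 members were called higher or lower with 5-Ad-IAA in WT cells, where 0% of all genes were called higher and 0% lower. Both NS1 comparisons use the same 3 untreated NS1 libraries, so a low value in those libraries raises the size of both differences.

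**Figure D1:**
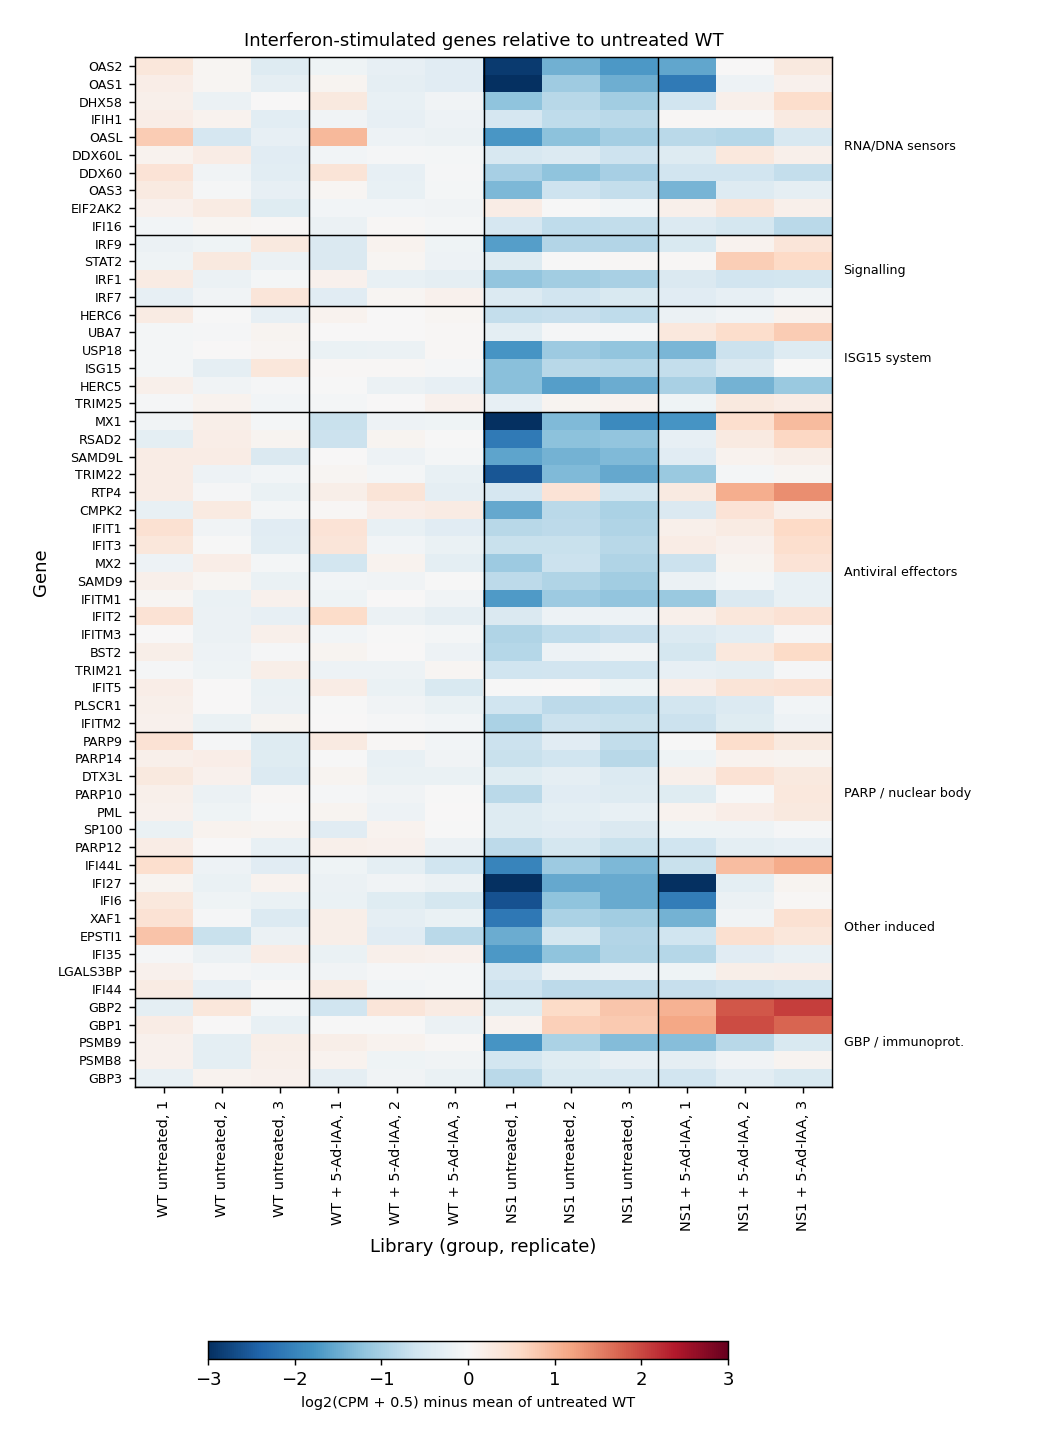
Heat map of the 58 members (rows, grouped by role and ordered by the change with 5-Ad-IAA in NS1 cells) in the 12 libraries (columns), as log2(CPM + 0.5) minus the mean of untreated WT cells, with colours saturating at 3 units. The untreated NS1 columns are blue for most rows, with replicate 1 the lowest in 39 of the 58. Among the treated NS1 columns, replicate 1 is the lowest in 48 of the 58. The summed level of the members in that library is 2424 CPM, against 3164 to 3653 CPM in untreated WT cells. The remaining treated NS1 columns are close to or above the WT level for most rows.

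Group values that did not overlap gave the same direction. In untreated cells 44 members had all 3 NS1 libraries below all 3 WT libraries, which held for 16.2% of all genes. With the inducer, 34 members had all 3 treated NS1 libraries above all 3 untreated ones, against 13.2% of all genes. Treated and untreated libraries with the same number deviated together from their group means (correlations of 0.75, 0.44 and 0.44 for numbers 1, 2 and 3 in NS1 cells over all genes tested), and they were treated as pairs. The highest correlation between libraries of different number was 0.40, so numbers 2 and 3 were hardly set apart from each other. Within these pairs, 54 of 58 members were higher with the inducer in 3 of 3 pairs, against 29% of all genes. The exceptions were EIF2AK2, OAS3, IFI16 and IFI44. With the number as a block within each line, 50 of the 58 members were called higher in NS1 cells, and 13% of all genes were. The 8 that were not called were EIF2AK2, OAS3, IFI16, IRF7, TRIM25, PARP12, IFI44 and GBP3.

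The count of 25 depended on single libraries. It was 38 without treated NS1 replicate 1, 10 without untreated NS1 replicate 1, 13 without untreated NS1 replicate 3, 12 without treated NS1 replicate 2 and 9 without treated NS1 replicate 3. Without replicate 1 of all groups it was 44, and without replicate 2 or replicate 3 it was 0, where 33 and 26 members still had an unadjusted p under 0.05, against 11.3% of all genes in either fit. Of all genes, 1.04% to 3.64% were called higher in the fits without 1 NS1 library, 6.22% without replicate 1 and 0% without replicate 2 or 3. IFIH1, HERC6, IFIT1, IFIT3, RSAD2, SAMD9, SAMD9L and GBP1 were called in all 6 fits that left out 1 NS1 library. The count of 38 lower members in untreated cells fell to 25 without untreated NS1 replicate 1 (4.42% of all genes), and to 5 and 8 without replicate 2 or 3 of all groups (0.509% and 0.517%).

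Sensors of foreign nucleic acid form the first group, with 10 members. Of these, 8 were lower in untreated NS1 than WT cells and 3 rose with the inducer in NS1 cells. OAS2, an oligoadenylate synthetase that activates RNase L (chr12:112978395-113011723, plus strand), stood at 65.2, 53.6 and 39.1 CPM in untreated WT cells and 47.01, 43.1 and 40.6 CPM in treated WT cells. In NS1 cells OAS2 read 6.604, 18.7 and 15.2 CPM untreated and 17.2, 52.1 and 63.1 CPM treated. The 3 untreated NS1 libraries lay below all others except treated NS1 replicate 1, which overlapped them. The log2 fold change with the inducer in NS1 cells was 1.71 (adjusted p = 0.0318, SE 0.42), and that of untreated NS1 against WT cells was -1.98 (adjusted p = 0.00923, SE 0.42). The OAS2 call with the inducer held in 2 of 6 fits without 1 library. Its paralog OAS1 stood at 23.5, 21.2 and 16.8 CPM in untreated WT cells and 21.4, 16.8 and 15.9 CPM in treated WT cells. For OAS1 the NS1 libraries held 1.67, 9.38 and 7.02 CPM untreated and 4.26, 18.1 and 22.2 CPM treated. Replicate 1 of both NS1 groups was the lowest of its group, and the groups overlapped. The inducer difference of OAS1 was a log2 fold change of 1.30 (adjusted p = 0.192, SE 0.55), and with the block within each line its adjusted p was 1.46e-05. OAS1 was lower in untreated NS1 cells (log2 fold change -1.80, SE 0.54, adjusted p = 0.0471), a call that held in 1 of 6 fits without 1 library.

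IFIH1 and DHX58 are helicases of the RIG-I-like family, IFIH1 (MDA5) as a sensor of long double-stranded RNA and DHX58 (LGP2) as its regulator. IFIH1 read 16.5, 15.5 and 11.4 CPM in untreated WT cells and 13.2, 11.9 and 12.8 CPM in treated WT cells. The NS1 libraries of IFIH1 read 9.94, 8.29 and 7.89 CPM untreated and 14.7, 14.6 and 17.4 CPM treated. All untreated NS1 libraries were below all WT libraries, and all treated NS1 libraries were above all untreated NS1 ones. IFIH1 rose (log2 fold change 0.83, SE 0.16, adjusted p = 0.00932) with the inducer. DHX58 was present at 7.496, 5.86 and 6.77 CPM in untreated WT cells and 8.31, 5.64 and 6.21 CPM in treated WT cells. Its NS1 libraries read 2.59, 3.56 and 2.98 CPM untreated and 4.32, 7.42 and 9.798 CPM treated. Untreated NS1 cells were lowest here too, without overlap with any other group, and the inducer difference was a log2 fold change of 1.22 (adjusted p = 0.0225, SE 0.28). OASL, an inactive relative of the synthetases that boosts RIG-I signalling (chr12:121019111-121039242, minus strand), read 133, 55.4 and 66.1 CPM in untreated WT cells and 154, 70.5 and 69.3 CPM in treated WT cells. The OASL level in NS1 cells was 23.1, 33.0 and 38.6 CPM untreated and 44.8, 43.6 and 56.1 CPM treated. The untreated NS1 libraries were lowest, the treated ones lay between them and the treated WT libraries without overlap, and replicate 1 of both WT groups was the highest. OASL was lower in NS1 cells without inducer (log2 fold change -1.44, SE 0.36, adjusted p = 0.0195), and with it (log2 fold change -1.03, SE 0.35, adjusted p = 0.0417). Its inducer difference in NS1 cells, a log2 fold change of 0.62 (adjusted p = 0.363, SE 0.35), did not pass, and passed with the block within each line (adjusted p = 2.91e-04).

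Of the other sensors, DDX60, OAS3 and the DNA sensor IFI16 were lower in untreated NS1 cells, at log2 fold changes of -1.12, -0.88 and -0.67. Their log2 fold changes with the inducer in NS1 cells, 0.45, 0.24 and 0.10, did not pass, and with the block within each line DDX60 did (adjusted p = 0.00405). DDX60L and EIF2AK2, the kinase PKR, passed neither test (log2 fold changes of 0.58 and 0.18 with the inducer), and with the block DDX60L had an adjusted p = 0.0202 for the inducer. EIF2AK2 was abundant, between 75.7 and 127 CPM in all libraries, and its log2 fold change between untreated lines was 0.02 with a 95% interval of -0.29 to 0.34.

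Among the 4 signalling members, IRF9 and IRF1 rose with the inducer and were lower in untreated NS1 cells. IRF9, the DNA-binding partner of STAT2 (chr14:24161053-24166565, plus strand), read 23.5, 24.2 and 32.5 CPM in untreated WT cells and 19.5, 28.5 and 24.3 CPM in treated WT cells. NS1 libraries for IRF9 were at 8.02, 14.1 and 14.1 CPM untreated and 19.1, 28.4 and 34.1 CPM treated. Untreated NS1 cells lay below the 9 other libraries, and the treated NS1 libraries spanned the WT range. IRF9 rose (log2 fold change 1.17, SE 0.25, adjusted p = 0.0167) and was lower in untreated NS1 cells (log2 fold change -1.15, SE 0.25, adjusted p = 0.0106). In the annotation 48.4% of its exon bases are shared with a readthrough gene on the same strand, so part of its reads could have been counted elsewhere. IRF1, the transcription factor that carries much of the interferon gamma response, stood at 32.1, 24.1 and 26.0 CPM in untreated WT cells and 30.01, 23.2 and 22.3 CPM in treated WT cells. NS1 cells held IRF1 at 11.8, 13.01 and 13.6 CPM untreated and 20.1, 18.1 and 18.3 CPM treated. The 3 groups of untreated NS1, treated NS1 and WT libraries did not overlap, in that order from low to high. IRF1 rose (log2 fold change 0.56, SE 0.15, adjusted p = 0.0407), but the call held in 0 of 6 fits without 1 library. It stayed lower than in WT cells when both lines had the inducer (log2 fold change -0.42, SE 0.14, adjusted p = 0.0418). An antisense transcript overlaps 1716 exon bases of IRF1, and use of strand in counting is not stated.

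STAT2 differed from both. It read 25.3, 33.8 and 24.3 CPM in untreated WT cells and 20.3, 28.8 and 24.7 CPM in treated WT cells, and in NS1 cells STAT2 read 20.9, 27.3 and 28.4 CPM untreated and 28.2, 46.0 and 41.9 CPM treated. The untreated lines overlapped, and the treated NS1 libraries were above the treated WT ones except for replicate 1. STAT2 was not called in untreated cells (log2 fold change -0.13, 95% interval -0.56 to 0.31), and it was higher in NS1 than WT cells with the inducer (log2 fold change 0.65, SE 0.20, adjusted p = 0.0271). The inducer difference in NS1 cells, a log2 fold change of 0.60 (adjusted p = 0.0983, SE 0.20), passed with the block within each line (adjusted p = 2.39e-04). IRF7, the main amplifier of interferon alpha, was not called in any comparison.

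ISG15 is a ubiquitin-like protein that is attached to targets by UBA7 and HERC5 and removed by USP18. Of the 6 members of this system, 4 were lower in untreated NS1 cells and 2 rose with the inducer. HERC6, a ligase of the same family as HERC5 (chr4:88378739-88443111, plus strand), read 28.9, 24.3 and 20.6 CPM in untreated WT cells and 26.3, 24.6 and 25.3 CPM in treated WT cells. HERC6 in NS1 cells read 14.6, 14.9 and 14.04 CPM untreated and 21.6, 22.7 and 26.2 CPM treated. Its untreated NS1 libraries were below all others, and its treated ones lay within the WT range. HERC6 rose (log2 fold change 0.69, SE 0.13, adjusted p = 0.00975). UBA7, the activating enzyme, stood at 13.8, 14.04 and 15.4 CPM in untreated WT cells and 14.4, 14.5 and 14.9 CPM in treated WT cells. Levels of UBA7 in NS1 cells were 11.7, 13.96 and 14.04 CPM untreated and 17.9, 21.04 and 24.8 CPM treated. The 3 treated NS1 libraries were above the 9 others. UBA7 rose (log2 fold change 0.68, SE 0.13, adjusted p = 0.0114) and ended above WT cells with the inducer (log2 fold change 0.54, SE 0.13, adjusted p = 0.00911), while the untreated lines differed by a log2 fold change of -0.12 (95% interval -0.42 to 0.17).

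HERC5, the main ISG15 ligase, read 35.5, 29.6 and 31.5 CPM in untreated WT cells and 32.1, 28.3 and 27.2 CPM in treated WT cells. In NS1 cells HERC5 held 13.2, 9.96 and 11.1 CPM untreated and 16.1, 11.6 and 14.6 CPM treated. Both NS1 groups lay below all WT libraries and overlapped each other. HERC5 was lower in NS1 cells without inducer (log2 fold change -1.50, SE 0.15, adjusted p = 6.44e-05) and with inducer (log2 fold change -1.05, SE 0.15, adjusted p = 2.32e-04). No other member had an adjusted p as low between the untreated lines. The inducer differences of HERC5 and USP18 in NS1 cells (log2 fold changes of 0.31 and 0.62) did not pass without a block and did with the block within each line (adjusted p = 0.0322 and 0.00952). USP18 (chr22:18149899-18177397, plus strand) read 9.14, 9.68 and 10.1 CPM in untreated WT cells and 8.36, 8.46 and 9.82 CPM in treated WT cells. USP18 in NS1 libraries read 2.47, 4.29 and 3.94 CPM untreated and 3.43, 5.94 and 7.22 CPM treated. All 6 NS1 libraries were below all 6 WT libraries, and the NS1 level was lower without inducer (log2 fold change -1.44, SE 0.25, adjusted p = 0.00341) and with it (log2 fold change -0.70, SE 0.25, adjusted p = 0.0477). ISG15 itself, present at 165, 142 and 220 CPM in untreated WT cells and 176, 177 and 170 CPM in treated WT cells, held 71.8, 97.5 and 95.4 CPM untreated and 106, 128 and 172 CPM treated in NS1 cells. Its treated NS1 libraries were above the untreated ones without overlap, but the difference, a log2 fold change of 0.62 (adjusted p = 0.0741, SE 0.19), did not pass, while with the block within each line it did (adjusted p = 0.00117). ISG15 was lower in untreated NS1 cells (log2 fold change -0.99, SE 0.19, adjusted p = 0.00549). TRIM25, a ligase of RIG-I signalling, was not called in any comparison and stood between 130 and 191 CPM.

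Antiviral effectors make up the largest group, with 18 members, of which 14 were lower in untreated NS1 cells and 10 rose with the inducer. MX1 had the largest log2 fold change of all members. This dynamin-like GTPase, which blocks influenza and other viruses, read 38.6, 46.5 and 39.6 CPM in untreated WT cells and 25.97, 37.4 and 38.1 CPM in treated WT cells. The NS1 values of MX1 were 1.61, 16.4 and 10.6 CPM untreated and 11.9, 58.8 and 80.1 CPM treated. Replicate 1 was far below replicates 2 and 3 in both NS1 groups, so the groups overlapped, although treated cells were higher in each numbered pair. The log2 fold change with the inducer was 2.41 (adjusted p = 0.0461, SE 0.65), a 5.32-fold difference, and the call held in 1 of 6 fits without 1 library. Untreated NS1 cells were lower (log2 fold change -2.15, SE 0.65, adjusted p = 0.0471), which held in 1 of 6 such fits. RSAD2, or viperin, a radical SAM enzyme that makes a chain-terminating nucleotide, stood at 8.11, 11.5 and 10.6 CPM in untreated WT cells and 6.17, 10.5 and 9.82 CPM in treated WT cells. RSAD2 levels in NS1 cells were 1.91, 3.998 and 4.14 CPM untreated and 8.27, 12.1 and 15.5 CPM treated. All untreated NS1 values lay below the 9 others. RSAD2 rose (log2 fold change 1.85, SE 0.32, adjusted p = 0.006604) and was lower in untreated NS1 cells (log2 fold change -1.61, SE 0.32, adjusted p = 0.00654), and both calls held in all 6 fits. Its neighbour CMPK2, a mitochondrial nucleotide kinase (chr2:6840570-6866635, minus strand), read 3.19, 4.73 and 3.67 CPM in untreated WT cells and 3.94, 4.45 and 4.59 CPM in treated WT cells. CMPK2 in the NS1 line read 0.988, 1.96 and 1.73 CPM untreated and 2.703, 5.24 and 4.32 CPM treated. The untreated NS1 libraries were again below the 9 others, and the inducer difference was a log2 fold change of 1.38 (adjusted p = 0.018, SE 0.30).

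SAMD9 and SAMD9L are paralogs that restrict poxviruses. SAMD9L read 6.89, 6.91 and 4.16 CPM in untreated WT cells and 5.84, 5.19 and 5.58 CPM in treated WT cells. Untreated and treated NS1 cells held SAMD9L at 1.61, 1.89 and 2.02 and 4.47, 6.29 and 6.64 CPM. The untreated NS1 libraries lay below the 9 others and the treated ones within the WT range. SAMD9L rose (log2 fold change 1.65, SE 0.24, adjusted p = 0.00335), and no other member had an adjusted p as low in that comparison. SAMD9 stood at 44.5, 41.7 and 34.9 CPM in untreated WT cells and 37.99, 37.4 and 40.1 CPM in treated WT cells. NS1 levels of SAMD9 were 22.96, 21.2 and 19.2 CPM untreated and 35.7, 38.4 and 34.3 CPM treated. The untreated NS1 libraries were again the lowest without overlap, and SAMD9 rose (log2 fold change 0.77, SE 0.11, adjusted p = 0.00356). TRIM22, a nuclear restriction factor, read 14.9, 11.3 and 11.98 CPM in untreated WT cells and 13.2, 12.02 and 10.7 CPM in treated WT cells. In NS1 cells TRIM22 was at 1.73, 4.72 and 4.04 CPM untreated and 5.61, 12.1 and 13.1 CPM treated. Its 3 untreated NS1 libraries were the lowest of all 12 and treated replicate 1 lay between them and the rest. TRIM22 rose (log2 fold change 1.56, SE 0.35, adjusted p = 0.0203).

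**Figure D2:**
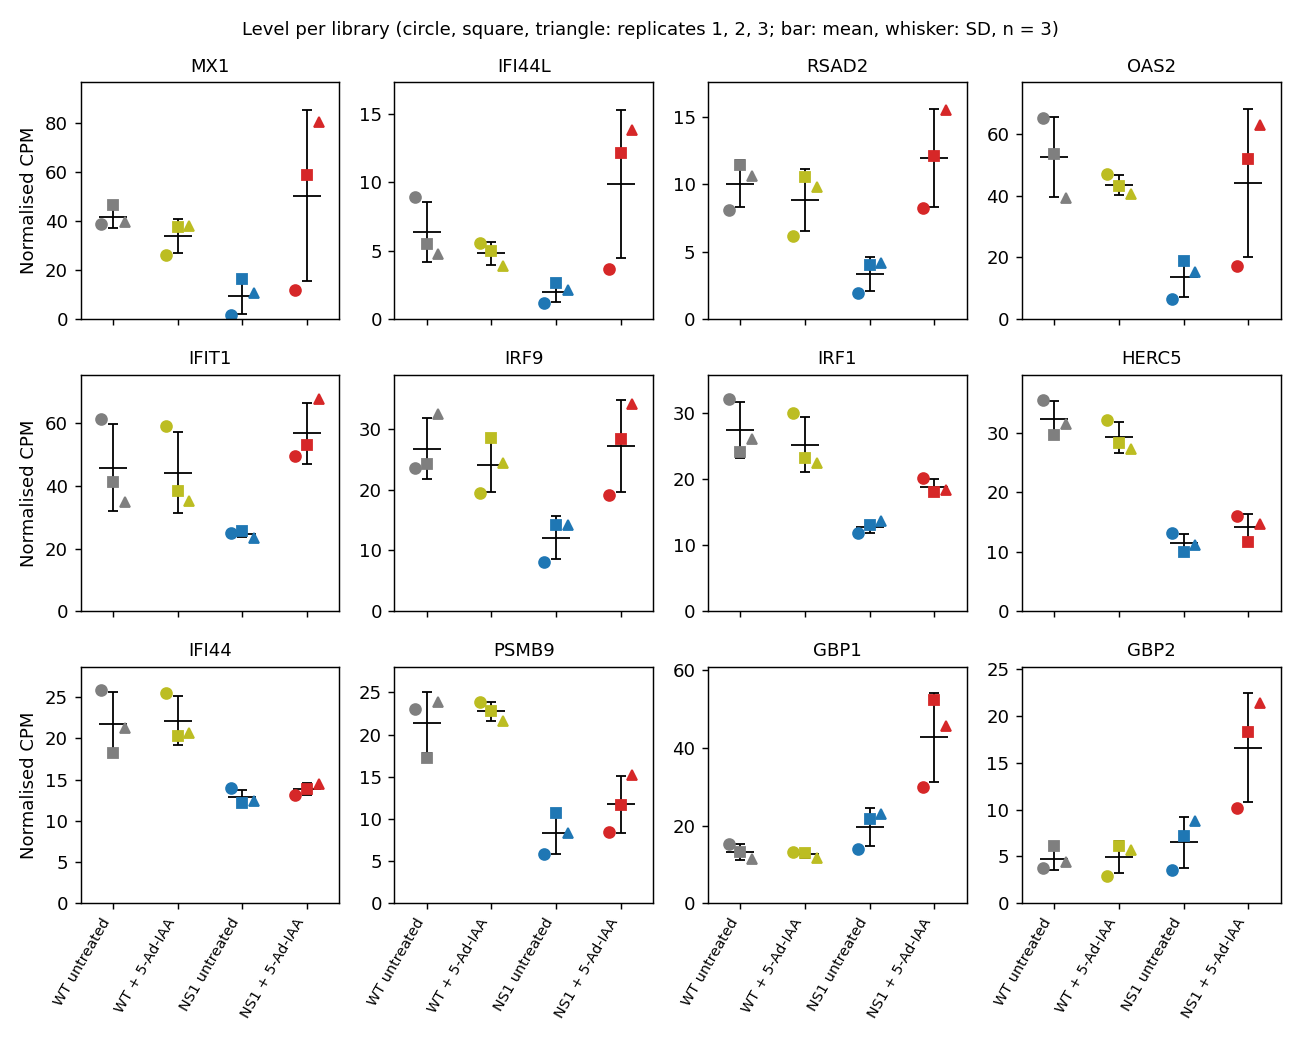
Normalised CPM (y axis, starting at 0) of 12 members in each library of the 4 groups (x axis), with circles, squares and triangles for replicates 1, 2 and 3, a bar for the mean and whiskers for the SD (n = 3). MX1 in treated NS1 cells spans 11.9 to 80.1, IFI44 differs little between the NS1 groups, and GBP1 and GBP2 exceed WT cells with the inducer.

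IFIT proteins bind viral RNA ends and halt its translation. IFIT1 read 61.4, 41.3 and 34.9 CPM in untreated WT cells and 59.1, 38.3 and 35.2 CPM in treated WT cells. The NS1 line held IFIT1 at 24.9, 25.7 and 23.5 CPM untreated and 49.5, 53.2 and 67.8 CPM treated. Replicate 1 was the highest in both WT groups and not in treated NS1 cells, and the untreated NS1 libraries were below all others. IFIT1 rose (log2 fold change 1.20, SE 0.22, adjusted p = 0.00912). IFIT3, its binding partner, read 50.6, 39.7 and 31.99 CPM in untreated WT cells and 51.7, 38.1 and 34.9 CPM in treated WT cells. For IFIT3 the NS1 levels were 24.9, 25.2 and 22.1 CPM untreated and 47.2, 44.2 and 56.9 CPM treated, again without overlap between treated and untreated cells. IFIT3 rose (log2 fold change 1.04, SE 0.18, adjusted p = 0.00717). The related IFIT2 and IFIT5 were not called in NS1 cells (log2 fold changes of 0.56 and 0.39), although neither had overlapping groups, and both passed with the block within each line (adjusted p = 6.37e-05 and 0.00701). IFIT5 was higher in NS1 than WT cells with the inducer (log2 fold change 0.46, SE 0.16, adjusted p = 0.0482).

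The IFITM proteins keep enveloped viruses from fusing with cell membranes. IFITM3 read 278, 243 and 304 CPM in untreated WT cells and 259, 272 and 264 CPM in treated WT cells. IFITM3 stood at 147, 162 and 169 CPM untreated and 207, 219 and 265 CPM treated in NS1 cells. Untreated NS1 libraries lay below the rest, and IFITM3 rose (log2 fold change 0.53, SE 0.12, adjusted p = 0.0201). IFITM1 read 140, 117 and 146 CPM in untreated WT cells and 122, 134 and 123 CPM in treated WT cells. Its NS1 libraries held 40.9, 62.4 and 58.5 CPM untreated and 61.3, 98.1 and 115 CPM treated. The treated NS1 libraries overlapped the untreated ones through replicate 1, and the call for IFITM1, a log2 fold change of 0.76 (adjusted p = 0.0454, SE 0.21), held in 1 of 6 fits without 1 library. IFITM1 and IFITM2 share 351 exon bases in the annotation, so reads could be split between them. IFITM2, MX2, PLSCR1 and TRIM21 were lower in untreated NS1 cells, at log2 fold changes of -0.76, -0.91, -0.74 and -0.61, and did not pass with the inducer (log2 fold changes of 0.38, 0.90, 0.39 and 0.42). With the block within each line these 4 did pass (adjusted p = 0.00335, 4.61e-04, 0.0179 and 0.00301). BST2, or tetherin, and RTP4 passed neither test (log2 fold changes of 0.53 and 1.45 with the inducer), and with that block both passed for the inducer (adjusted p = 4.81e-04 and 0.003303). RTP4 was thinly covered, with 6 to 44 counts per library.

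Within the 7 members of the PARP and nuclear body group, 3 were lower in untreated NS1 cells and 4 rose with the inducer. PARP9 and DTX3L form an ADP-ribosylation and ubiquitin ligase complex and share a promoter region. PARP9 (chr3:122527924-122564577, minus strand) read 28.8, 20.6 and 16.3 CPM in untreated WT cells and 25.9, 21.9 and 20.2 CPM in treated WT cells. PARP9 in NS1 cells read 13.5, 16.8 and 12.6 CPM untreated and 21.1, 30.7 and 26.2 CPM treated. The treated NS1 libraries were above the untreated ones without overlap. DTX3L read 43.7, 38.9 and 26.9 CPM in untreated WT cells and 37.9, 31.2 and 30.9 CPM in treated WT cells. DTX3L in NS1 cells read 27.6, 29.8 and 26.9 CPM untreated and 39.9, 48.3 and 43.7 CPM treated. The same held for DTX3L, and the untreated lines overlapped for both genes. The inducer differences were a log2 fold change of 0.85 (adjusted p = 0.0288, SE 0.21) for PARP9 and a log2 fold change of 0.64 (adjusted p = 0.0319, SE 0.16) for DTX3L. PARP14, which ADP-ribosylates signalling proteins, read 67.5, 69.5 and 46.7 CPM in untreated WT cells and 59.3, 51.9 and 55.7 CPM in treated WT cells. The levels of PARP14 in NS1 cells were 37.8, 39.5 and 33.6 CPM untreated and 54.7, 64.7 and 64.3 CPM treated. Its untreated NS1 libraries were below all others, and PARP14 rose (log2 fold change 0.72, SE 0.14, adjusted p = 0.0115).

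PML is the scaffold of nuclear bodies (chr15:73994673-74047812, plus strand). It read 123, 103 and 112 CPM in untreated WT cells and 119, 101 and 113 CPM in treated WT cells. The NS1 line held PML at 85.4, 90.9 and 96.7 CPM untreated and 120, 129 and 137 CPM treated. The treated NS1 libraries were above the untreated ones without overlap, and PML rose (log2 fold change 0.50, SE 0.11, adjusted p = 0.0151). SP100, another nuclear body protein, read 52.9, 64.7 and 64.5 CPM in untreated WT cells and 47.9, 64.7 and 59.6 CPM in treated WT cells. NS1 cells read 45.8, 47.4 and 44.6 CPM untreated and 55.7, 55.5 and 58.8 CPM treated for SP100. These untreated values were below all others. SP100 was lower in untreated NS1 cells (log2 fold change -0.40, SE 0.12, adjusted p = 0.0456), and its log2 fold change of 0.30 with the inducer did not pass, and passed with the block within each line (adjusted p = 0.00701). PARP12 was lower in NS1 cells without inducer (log2 fold change -0.70) and with it (-0.45, adjusted p = 0.0432). PARP10 was not called in any comparison without a block, and its log2 fold change of 0.51 with the inducer in NS1 cells passed with the block within each line (adjusted p = 6.12e-04).

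Other induced genes number 8, of which 5 were lower in untreated NS1 cells and 2 rose with the inducer. IFI44L, a paralog of IFI44, read 8.902, 5.48 and 4.74 CPM in untreated WT cells and 5.56, 4.97 and 3.87 CPM in treated WT cells. IFI44L in the NS1 line was at 1.17, 2.62 and 2.12 CPM untreated and 3.69, 12.1 and 13.9 CPM treated. The 3 untreated NS1 libraries were the lowest of the 12, and treated replicates 2 and 3 were the highest. IFI44L rose (log2 fold change 2.32, SE 0.46, adjusted p = 0.0115). IFI44 itself read 25.9, 18.2 and 21.3 CPM in untreated WT cells and 25.6, 20.3 and 20.6 CPM in treated WT cells. The NS1 values of IFI44 were 13.95, 12.2 and 12.4 CPM untreated and 13.1, 13.9 and 14.5 CPM treated. All 6 NS1 libraries lay below all 6 WT libraries, and the NS1 groups overlapped. The log2 fold change of IFI44 with the inducer was 0.10 with a 95% interval of -0.22 to 0.42, and it was lower in NS1 cells without inducer (log2 fold change -0.76, SE 0.15, adjusted p = 0.00544) and with it (log2 fold change -0.68, SE 0.15, adjusted p = 0.00374).

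IFI6, a mitochondrial and endoplasmic reticulum protein, read 77.5, 56.2 and 53.8 CPM in untreated WT cells and 53.8, 48.1 and 42.4 CPM in treated WT cells. IFI6 levels in NS1 cells were 9.63, 26.5 and 21.4 CPM untreated and 14.2, 54.5 and 63.4 CPM treated. Replicate 1 was the lowest library of each NS1 group, and the NS1 groups overlapped. XAF1, an antagonist of the apoptosis inhibitor XIAP, read 16.96, 12.1 and 9.18 CPM in untreated WT cells and 14.01, 10.2 and 10.6 CPM in treated WT cells. XAF1 levels in NS1 cells were 2.41, 6.18 and 5.77 CPM untreated and 4.32, 11.4 and 17.02 CPM treated. XAF1 also had its lowest NS1 values in replicate 1 and overlapping NS1 groups. The inducer differences, a log2 fold change of 1.20 (adjusted p = 0.135, SE 0.44) for IFI6 and a log2 fold change of 1.19 (adjusted p = 0.138, SE 0.44) for XAF1, passed with the block within each line (adjusted p = 3.41e-05 and 1.36e-04). A transcript on the opposite strand covers 38.3% of the exon bases of XAF1. IFI35 (chr17:43006725-43014456, plus strand) read 21.8, 19.7 and 26.2 CPM in untreated WT cells and 19.4, 24.9 and 24.4 CPM in treated WT cells. IFI35 stood at 6.48, 9.45 and 11.7 CPM untreated and 12.1, 17.5 and 19.2 CPM treated in NS1 cells. Untreated NS1 libraries were the lowest, and IFI35 rose (log2 fold change 0.82, SE 0.22, adjusted p = 0.0456). IFI27, EPSTI1 and LGALS3BP were not called without a block, at log2 fold changes of 1.42, 1.14 and 0.36 with the inducer in NS1 cells, and passed with the block within each line (adjusted p = 6.58e-07, 5.19e-04 and 0.00206). IFI27 spread widely, with 7.47, 51.5 and 52.1 CPM in untreated and 15.96, 123 and 157 CPM in treated NS1 cells, against 131 to 160 CPM in all 6 WT libraries.

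Guanylate-binding proteins and immunoproteasome subunits, typical of interferon gamma, number 5 members. With the inducer in both lines 2 were called higher and 1 lower in NS1 cells, against 13.6% and 14.5% of all genes. All 5 had a log2 fold change above 0 with the inducer within NS1 cells. GBP1, a GTPase that coats intracellular bacteria, read 15.4, 13.2 and 11.3 CPM in untreated WT cells and 13.1, 13.1 and 11.6 CPM in treated WT cells. GBP1 in NS1 cells read 14.1, 21.8 and 22.99 CPM untreated and 30.1, 52.5 and 45.7 CPM treated. Treated NS1 libraries were above the 9 others. GBP1 rose (log2 fold change 1.12, SE 0.21, adjusted p = 0.00967) and was higher in NS1 than WT cells with the inducer (log2 fold change 1.75, SE 0.22, adjusted p = 1.15e-04), a 3.37-fold difference. GBP2 read 3.75, 6.08 and 4.45 CPM in untreated WT cells and 2.94, 6.16 and 5.67 CPM in treated WT cells. In NS1 cells GBP2 stood at 3.52, 7.196 and 8.75 CPM untreated and 10.1, 18.2 and 21.3 CPM treated. Its treated NS1 libraries were again above the 9 others. GBP2 rose (log2 fold change 1.36, SE 0.36, adjusted p = 0.0409) and exceeded WT cells with the inducer (log2 fold change 1.77, SE 0.37, adjusted p = 0.00317). Neither was called between the untreated lines (log2 fold changes of 0.55 and 0.44).

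PSMB9, an inducible catalytic subunit of the immunoproteasome, read 23.1, 17.3 and 23.9 CPM in untreated WT cells and 23.9, 22.8 and 21.6 CPM in treated WT cells. PSMB9 read 5.86, 10.7 and 8.37 CPM untreated and 8.47, 11.6 and 15.2 CPM treated in NS1 cells. All 6 NS1 libraries were below all 6 WT libraries, and the NS1 level was lower without inducer (log2 fold change -1.37, SE 0.23, adjusted p = 0.00278) and with it (log2 fold change -0.97, SE 0.23, adjusted p = 0.00656). GBP3 read 32.2, 40.6 and 41.7 CPM in untreated WT cells and 31.2, 35.5 and 33.1 CPM in treated WT cells. For GBP3 the NS1 line held 21.6, 27.5 and 27.02 CPM untreated and 25.3, 30.2 and 27.5 CPM treated. Both NS1 groups were below the WT groups without overlap, and GBP3 was lower in untreated NS1 cells (log2 fold change -0.59, SE 0.13, adjusted p = 0.0122). PSMB8, another such subunit, was not called, at log2 fold changes of -0.41 untreated and -0.06 with inducer. For the inducer in NS1 cells, PSMB9 and PSMB8 (log2 fold changes of 0.50 and 0.29) did not pass, and passed with the block within each line (adjusted p = 0.0239 and 0.02395).

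By interferon type, 14 of 39 type I typical members rose with the inducer in NS1 cells, with a median log2 fold change of 0.69. Of the 13 members induced by both types, 8 rose (median 0.64), and of the 6 typical of interferon gamma 3 rose (median 0.53). Without treatment, 28 of 39, 7 of 13 and 3 of 6 were lower in NS1 cells, with medians of -0.91, -0.61 and -0.50. The difference between these classes was not tested.

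In WT cells the log2 fold change of the 58 members with the inducer ran from -0.45 (EPSTI1) to 0.21 (OASL), with 42 below 0 and a median of -0.08. At an unadjusted p under 0.05 there were 0 members by edgeR and 0 by DESeq2. The 95% interval lay within 2-fold in either direction for 49 of 58 members. The other 9 were OAS1, OAS2, MX1, RTP4, IFI6, IFI27, IFI44L, XAF1 and EPSTI1, for which the interval reached 2-fold. MX1 and IFI6, 2 of the 58 members, had all 3 treated WT libraries below all 3 untreated ones, against 1.73% of all genes.

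**Figure D3:**
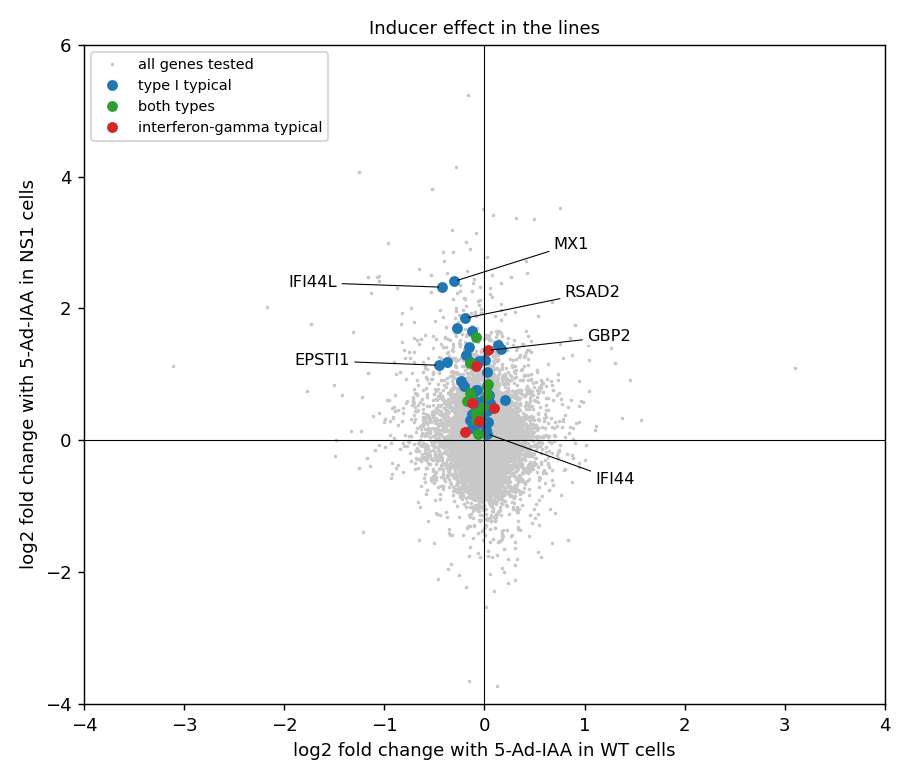
Log2 fold change with 5-Ad-IAA in WT cells (x axis) and in NS1 cells (y axis) for all 17775 genes tested (grey) and the 58 members, coloured by the interferon type they are typical of. All members lie above 0 on the y axis, up to 2.41 for MX1, while on the x axis they lie between -0.45 and 0.21.

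The difference between the inducer effects in the lines, the interaction of genotype and inducer, was above 0 for all 58 members with a median log2 value of 0.71. In edgeR's test without a block, 0 members and 0.0113% of all genes were called higher, and the lowest adjusted p of a member was 0.0534 (SAMD9L). An unadjusted p under 0.05 was reached by 40 members and 12.4% of all genes, and DESeq2 called 13 members higher and 1.27% of the 13636 genes it gave an adjusted p. With the replicate number as a block, 17 members were called, against 1.71% of all genes. With the number as a block within each line, 45 members were called, against 6.98% of all genes. In WT cells the number clearly set apart only replicate 1. On the log2 scale the interaction of SAMD9L was 1.78 (SE 0.32), of MX1 2.71 (adjusted p = 0.201, SE 0.88) and of IFI44L 2.74 (adjusted p = 0.0866, SE 0.62), with adjusted p of 4.17e-04, 6.68e-06 and 2.14e-05 under the block within each line. IFI44, IFI16 and PARP12 were among the 13 members without a call there, at log2 values of 0.08, 0.16 and 0.25.

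With the inducer in both lines, 5 members were higher in NS1 cells and 9 lower, against 13.6% and 14.5% of all genes, and the members' median log2 fold change was -0.0053. Neither count was clearly above the share of all genes. The 5 higher members were STAT2, UBA7, IFIT5, GBP1 and GBP2, and all of these were uncalled between untreated lines. The 9 lower members were DDX60, OASL, IFI16, IRF1, HERC5, USP18, PARP12, IFI44 and PSMB9, and all 9 were also lower in untreated NS1 cells. These comparisons share no libraries, but treated and untreated libraries of a line with the same number deviated together, so the comparisons are not independent. The other 29 members that were lower in untreated NS1 cells were not called with the inducer, and 15 were called in neither comparison. Of the 44 members without a call with the inducer, 34 had a 95% interval within 2-fold in either direction, while for OAS1, OAS3, MX1, RSAD2, RTP4, IFI6, IFI27, IFI44L, XAF1 and EPSTI1 it reached 2-fold. Without replicate 1, 19 members were called higher with the inducer, against 16.9% of all genes. Without replicate 2 or replicate 3 of all groups 1 was higher and 2 were lower, against 4.53% and 4.5% of all genes without replicate 2 and 5.99% and 5.7% without replicate 3. Leaving out 1 of the 6 libraries gave 3 to 7 higher and 4 to 8 lower members, against 9.58% to 12.1% and 10.7% to 12.8% of all genes. There were 3 higher without treated WT replicate 3 or treated NS1 replicate 2 or 3. There were 4 lower without treated WT replicate 1 and 5 lower without treated NS1 replicate 2.

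**Figure D4:**
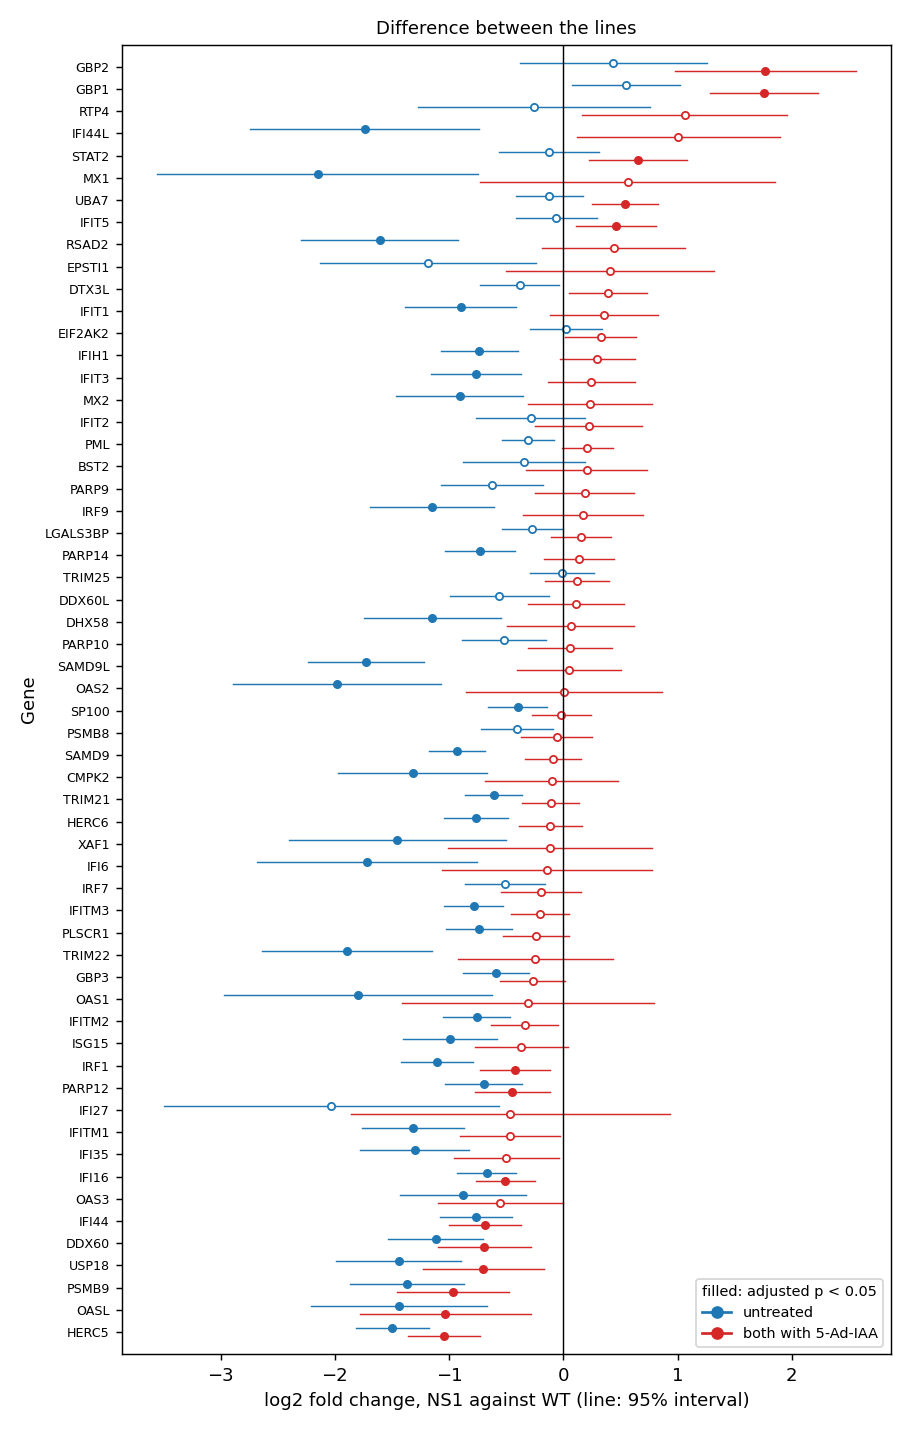
Log2 fold change of NS1 against WT cells (x axis, lines for 95% intervals) for each member (y axis), untreated in blue and with 5-Ad-IAA in both lines in red, with filled points for an adjusted p under 0.05. Most blue points lie below 0 and most red points lie nearer 0. Filled red points are the 9 genes called lower, such as HERC5, and the 5 called higher, such as GBP1, against 14.5% and 13.6% of all genes.

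Neighbouring members were compared by the ratio of their levels, as the difference of log2(CPM + 0.5). The added 0.5 shrinks ratios of genes with few CPM, such as IFI44L. Members whose next member lay within 100 kb were joined, which gave 29 members in 12 clusters. All 23 pairs within clusters were taken, so a gene can be in several pairs and a pair need not lie within 100 kb. In 10 of the pairs the ratio of the 2 genes in NS1 cells did not overlap between treated and untreated libraries, for which an exact two-sided permutation test gives p = 0.1, the smallest that 3 against 3 libraries allow, so that no pair could pass. In the other 13 pairs the ratios overlapped. Other gene pairs were not compared, so the count of 10 cannot be read as particular to neighbours. On chromosome 1, the log2 ratio of IFI44L to IFI44 was -1.49, -1.65 and -2.06 in untreated WT cells and -2.11, -1.92 and -2.27 in treated ones. It was -3.11, -2.03 and -2.30 in untreated and -1.70, -0.19 and -0.06 in treated NS1 cells, so each treated NS1 library was above every untreated one. On chromosome 12, the log2 ratio of OAS3 to OAS2 was 3.29, 2.58 and 2.77 in untreated and 1.92, 1.34 and 1.19 in treated NS1 cells, against 1.68, 1.67 and 1.91 in untreated WT cells. The ratio of GBP3 to GBP1, also on chromosome 1, was 0.60, 0.33 and 0.23 in untreated and -0.24, -0.79 and -0.72 in treated NS1 cells, and 1.04, 1.58 and 1.84 in untreated WT cells. In the IFIT cluster on chromosome 10 the ratios of IFIT1 and IFIT3 to IFIT5 were higher with the inducer without overlap, and the SAMD9 to SAMD9L ratio on chromosome 7 was lower without overlap. HERC6 and HERC5 on chromosome 4 overlapped in their ratio between the NS1 groups.

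Per kilobase of annotated exon, IFITM3, ISG15, IFITM1, LGALS3BP, IFITM2 and BST2 were the most abundant members in untreated WT cells, at 204, 186, 124, 120, 112 and 101 CPM per kilobase as group means. IFI44L, RTP4, GBP2, DDX60L, SAMD9L and CMPK2 were the least abundant, between 0.622 and 0.898. In treated NS1 cells GBP2 reached 2.64 and IFI44L 0.967 CPM per kilobase.

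Other genes of the interferon pathway were taken from lists by role. The 9 interferon genes listed (IFNB1, IFNA1, IFNA2, IFNE, IFNK, IFNL1, IFNL2, IFNL3 and IFNG) together had at most 4 counts in any library, so a change in them was not detectable at this depth. Of 9 receptor and kinase genes, 0 were called with the inducer in NS1 cells by edgeR without a block. With the block within each line 3 of the 9 were higher, against 13% of all genes. These were the interferon receptor chains IFNAR2 and IL10RB and the kinase JAK1, at log2 fold changes of 0.65, 0.40 and 0.38 (adjusted p = 3.78e-04, 0.0149 and 0.001595). In that list IL10RB, a subunit of the type III interferon receptor, was lower in untreated NS1 cells (log2 fold change -0.69, SE 0.13, adjusted p = 0.00509). With the inducer in both lines, IFNGR1, a chain of the interferon gamma receptor, was higher in NS1 cells (log2 fold change 0.39, SE 0.13, adjusted p = 0.0463) and the kinase JAK2 lower (log2 fold change -0.67, SE 0.21, adjusted p = 0.0327). Of 4 inhibitors, SOCS1 was lower in untreated NS1 cells (log2 fold change -2.57, SE 0.70, adjusted p = 0.0305), with 0.247, 0.363 and 0.289 CPM against 0.843, 2.402 and 2.42 CPM in WT cells and as few as 3 counts in a library. SOCS3 was lower in NS1 cells with the inducer (log2 fold change -0.66, SE 0.15, adjusted p = 0.00514). The inducer differences of SOCS1 and SOCS3 within NS1 cells, log2 fold changes of 2.01 and -0.49 (adjusted p = 0.129 and 0.0705), passed with the block within each line (adjusted p = 0.00247 and 0.00425).

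Of 11 further sensing genes, RIGI, the sensor of short double-stranded RNA ends, was lowest in untreated NS1 cells. It read 46.3, 55.1 and 51.1 CPM in untreated WT cells and 42.6, 57.2 and 54.9 CPM in treated WT cells. RIGI in NS1 cells read 19.8, 23.5 and 26.6 CPM untreated and 30.9, 39.2 and 46.3 CPM treated. The untreated NS1 libraries lay below the 9 others. RIGI rose (log2 fold change 0.74, SE 0.17, adjusted p = 0.0213) with the inducer and was lower in untreated NS1 cells (log2 fold change -1.13, SE 0.17, adjusted p = 0.00121). STING1 and TBK1, which relay cytosolic DNA signals, were lower in untreated NS1 cells (log2 fold change -0.63, SE 0.19, adjusted p = 0.0444 for STING1 and log2 fold change -0.34, SE 0.10, adjusted p = 0.0452 for TBK1), and MAVS, the adaptor of RIG-I-like sensors, was higher in NS1 cells with the inducer (log2 fold change 0.43, SE 0.13, adjusted p = 0.0306). With the block within each line the inducer differences of TLR3, STING1 and ADAR (log2 fold changes of 0.57, 0.32 and 0.28) and of the DNA sensor CGAS (-0.42) in NS1 cells also passed (adjusted p = 0.0171, 0.0177, 0.0179 and 0.00383), which they did not without a block.

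Replicate 1 stood apart within the NS1 line. The summed level of the 58 members was 1813, 2261 and 2228 CPM in untreated NS1 cells and 2424, 3242 and 3563 CPM in treated ones. In WT cells it was 3653, 3164 and 3257 CPM untreated and 3332, 3182 and 3117 CPM treated. Replicate 1 was the lowest library for 39 members in untreated and 48 in treated NS1 cells, against 40.7% and 39.2% of all genes. It was the highest for 32 members in each WT group, against 32.9% and 41% of all genes. Replicate 1 was also the deepest library of each group, and the part of depth or of the replicate in these levels was not tested. The medians of the members' differences in log2(CPM + 0.5) between treated and untreated NS1 libraries were 0.54, 0.63 and 0.80 in pairs 1, 2 and 3.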

How the data were processed

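The authors deposited 1 table of raw read counts per gene for the 12 libraries, with 60603 versioned gene identifiers. Per the submitters' processing notes, STAR 2.7.3a and featureCounts 1.6.4 were used with hg38. Whether counting used strand and which annotation it used are not given in the sources used here. Gene names were matched for 60306 of the identifiers, exon overlaps and lengths come from GENCODE release 29, and coordinates are printed only for the 15 members whose identifier version matched that release. Counts were fitted in edgeR 4.0.16 (R 4.3.3) with filterByExpr over the 4 groups, TMM and 1 quasi-likelihood model of all 12 libraries, with two-sided tests. Calls use p adjusted by Benjamini and Hochberg's method across the 17775 genes, at a threshold of 0.05. Standard errors (SE) were obtained from F as the absolute log2 fold change over the root of F. The fit was also run on simulated counts, and the outcome is not given here. Replicates differed beyond sampling noise (lowest chi-square per degree of freedom 3.03). The alternatives were no low-count filter, RLE size factors, library totals, only the groups compared, DESeq2 1.42.0, replicate blocks and leave-one-out fits. Correlations of treated and untreated libraries with the same number were 0.75, 0.44 and 0.44 in NS1 cells, against at most 0.40 between different numbers. In WT cells the same-number values were 0.78, 0.41 and 0.26, against at most 0.41, so only replicate 1 was clearly set apart there. Blocked values stand beside the inducer results they change. Members and lists were chosen with earlier results of these data known. Values in every library are given for called members, up to 5 per role in order of the inducer effect in NS1 cells, and for members with opposite calls in 2 comparisons. Among antiviral effectors they are given for all 10 called with the inducer in NS1 cells. The NS1 values of IFI27 are given as well. Of 58 members, 13 have no window in the RefSeq promoter table. 1 listed marker gene is not reported here.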

Additional observations from a re-analysis of the deposited data

Results flagged for a closer look

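The inducer effect differed between the lines for many members when the replicate number was a block within each line: 45 of 58 had an adjusted p under 0.05 for the interaction in edgeR, although 0 did without a block. A pattern of opposite signs appeared in 13 members, which were higher in 3 of 3 NS1 pairs and lower in 3 of 3 WT pairs: OAS1, IRF1, HERC5, USP18, MX1, MX2, RSAD2, TRIM21, PLSCR1, SP100, IFI6, IFI44L and GBP3. Of all genes, 3.07% showed it. These opposite signs were not tested as such. In WT cells the same-number correlations were 0.78, 0.41 and 0.26, against up to 0.41 between different numbers. WT pairs 2 and 3, which also enter the block behind the 45 calls, are therefore weakly grounded. For all 58 members together the NS1 pairs were all higher for 54 and the WT pairs all lower for 14, against 29% and 9.27% of all genes.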

How the results depend on the processing

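The direction of the members' calls did not reverse under any alternative run. With RLE size factors, library totals or DESeq2, every inducer fold change of the members in NS1 cells stayed above 0, with 25, 23 and 29 calls. Of all genes, 2.84%, 2.08% and 4.01% were called higher in these fits. Fitted on only the groups compared, 18 members were called higher with the inducer in NS1 cells, against 2.86% of all genes. Of the 25 calls, 17 were kept and 8 lost. Between treated lines that fit gave 6 higher and 6 lower, against 13.5% and 13% of all genes. Without the low-count filter, 38 members were called higher with the inducer in NS1 cells, against 2.86% of all genes. Between untreated lines 1 was higher, against 3.98% of all genes. Between treated lines 8 were higher and 14 lower, against 8.06% and 7.99%. In the interaction 26 were higher, against 1.19%. The interaction gave 13 calls with DESeq2. With a replicate block it gave 17, and with a replicate block within each line 45. That last block gave 50 higher members for the inducer in NS1 cells, against 13% of all genes. The plain replicate block gave 30, against 6.5% of all genes. Between untreated lines, same-number correlations were weak (0.135, 0.0838 and 0.214), with at most -0.02315 between different numbers. With the inducer in both lines they were 0.148, 0.127 and -0.003535, against at most 0.125. The replicate block gave 45 lower members untreated, against 11.7% of all genes. With the inducer in both lines it gave 7 higher and 14 lower, against 18.3% and 19.3% of all genes.

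Leaving out 1 library, or 1 replicate number in all groups, gave ranges. The inducer in NS1 cells had 0 to 44 members called higher, against 0% to 6.22% of all genes. Untreated lines had 0 to 1 higher and 5 to 40 lower, against 0.484% to 8.85% and 0.509% to 10.8% of all genes. Treated lines had 1 to 19 higher and 2 to 8 lower, against 4.53% to 16.9% and 4.5% to 17.1%. The interaction had 0 to 21 higher, with 13 without treated NS1 replicate 1 and 3 without untreated WT replicate 3. Of all genes, 0% to 1.72% were higher there, with 0.494% and 0.0606% in those named fits. The cause was not tested. Low counts limit SOCS1, RTP4 and the interferon genes most.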
